A study of Mus musculus with 19 samples.

Results

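The tumors compared here were primary sarcomas of Rag2-/- mice, set apart by how much mRNA of 4 natural killer (NK) cell genes they held. For each of the 11 Rag2-/- tumors the log2 values of Ncr1, Klrb1c, Gzma and Prf1 were averaged into an NK score. The members were chosen by these measured values: the 4 tumors with the highest score (S47, S41, S43 and S51) were set against the 4 with the lowest (S48, S50, S46 and S49). The comparison therefore used 8 of the 19 tumors of the series. The other 3 Rag2-/- tumors (S42, S45 and S44) lay between the groups and the remaining 8 tumors came from Rag2+/- mice. Bulk RNA-seq was made of whole tumors, 1 library per tumor, and the deposited values are log2 FPKM (fragments per kilobase of transcript, scaled for sequencing depth) normalized to the upper quartile, with 0.1 added before the log, so that a gene with no fragments sits at -3.32.

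All mice received, at 6 to 10 weeks of age, an adenovirus carrying Cas9 and a guide RNA to Trp53 in the gastrocnemius muscle, followed by 300 µg of the carcinogen 3-methylcholanthrene (MCA) at the same site. Both genotypes thus carried the same virus and carcinogen, and differed in Rag2, the recombinase without which no T or B cells mature. The tumors were untreated and were harvested at 70 to 150 mm3. The adenovirus is not integrated and its editing differs from cell to cell, and a whole tumor also holds host muscle, fat, vessels and leukocytes. In such bulk tissue, fewer cells of a type and less RNA per cell cannot be told apart. The labels name each Rag2-/- library as a separate tumor, and p-values measure the spread between these tumors.

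NK cells are lymphocytes that develop without antigen receptor rearrangement and so persist in Rag2-/- mice. They recognise targets through activating receptors such as NKp46 (Ncr1), are held back by receptors for MHC class I, and kill by releasing perforin (Prf1) and granzymes. Type I interferons are sensed by nearly all cells through surface receptors, induce genes such as Isg15, Irf7 and the Ifit family, and are known to raise the cytotoxic capacity of NK cells. Interferon gamma, which NK cells secrete, acts on MHC class I, guanylate-binding proteins and the chemokines Cxcl9, Cxcl10 and Cxcl11.

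The score ran from 0.73 in S48, 0.96 in S50, 1.66 in S46 and 1.96 in S49 through 1.98 in S42, 2.19 in S45 and 2.42 in S44 to 2.48 in S47, 2.59 in S41, 2.64 in S43 and 2.69 in S51. The borders were narrow, with a gap of 0.013 between S49 and S42 and of 0.063 between S44 and S47. S48 and S50 stood below the rest, and the 4 highest tumors lay close together. In the 8 Rag2+/- tumors the same score ran from -1.26 to 1.53, so all but S48 and S50 of the Rag2-/- tumors scored above every Rag2+/- tumor.

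**Figure D1:**
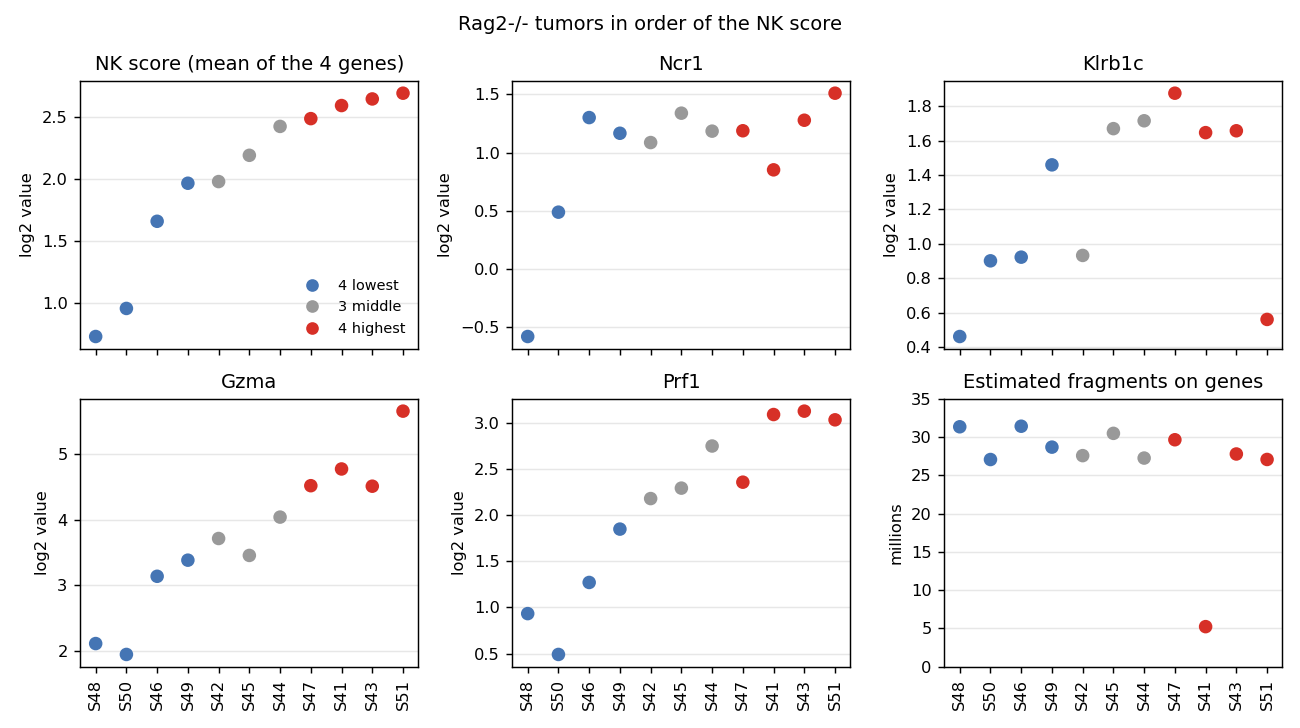
NK score, the 4 genes that make it up (log2 values, vertical axes) and the estimated fragments on genes in each Rag2-/- tumor, with tumors from left to right in the order of the score and coloured by group. Gzma and Prf1 are higher in each of the 4 high-score tumors than in any low-score tumor, Ncr1 and Klrb1c overlap, and S41 is the shallow library (5.23).

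The 4 genes that chose the tumors are given as a description. Gzma, a granule protease, was 4.52, 4.77, 4.51 and 5.65 in S47, S41, S43 and S51 and 2.11, 1.95, 3.14 and 3.38 in S48, S50, S46 and S49, a mean difference of 2.22 on the log2 scale. Prf1, the pore-forming protein, was 2.35, 3.09, 3.12 and 3.03 against 0.93, 0.49, 1.27 and 1.85, a difference of 1.76. Ncr1, the receptor closest to a lineage marker, was 1.19, 0.85, 1.28 and 1.51 against -0.58, 0.49, 1.30 and 1.17. Klrb1c, which encodes NK1.1, was 1.88, 1.65, 1.66 and 0.56 against 0.46, 0.90, 0.92 and 1.46. The groups did not overlap in Gzma and Prf1 and overlapped in Ncr1 (difference 0.61) and Klrb1c (difference 0.50). The ranking thus rested mainly on the cytotoxic granule genes, and the groups are called high-score and low-score below rather than NK-rich and NK-poor. Ranked by Ncr1 and Klrb1c alone, the highest 4 tumors were S43, S44, S45 and S47 and the lowest were S42, S48, S50 and S51, so S51 changed sides.

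Several libraries stood apart. S41 had an estimated 5.23 M fragments on genes (M, mega) and the other 10 Rag2-/- libraries had 27.1 to 31.4 M, so that its Ncr1 value rested on about 12 fragments. Neither depth (22.4 ± 11.5 against 29.6 ± 2.13 M, SD, n = 4 each; two-sided exact permutation test, p = 0.2, smallest possible 0.0286) nor the share of genes above the floor (36.6% against 37.2%, p = 0.714, same exact test) passed a test between the high-score and low-score groups. S51 had a mean log2 value of 11.2 over skeletal muscle genes (3.72 to 9.25 in the other 10), of 1.47 over cell cycle genes (3.89 to 5.09) and of 5.27 over matrix genes (6.98 to 7.96). Adipocyte markers had a mean of 8.72 in S46, 6.21 in S47 and 5.81 in S51, and of -0.99 to 1.63 in the other 8. Their median difference between the groups was -0.04, and -1.16 without S51, 1.26 without S41 and 2.26 without S46. Xist, expressed from the inactive X chromosome of females, was above 0 in S47, S41 and S43 but in only S48 of the low-score tumors. Y-linked genes were expressed in S51 and in S50, S46 and S49, so sex was unevenly split between the groups. The genotype labels were checked on lymphocyte genes: Cd3e, a T cell receptor subunit, was at the floor in all 11 Rag2-/- tumors and between -0.61 and 2.90 in the Rag2+/- tumors. Rag2 itself was low in both genotypes (-2.05 to 0.36 in Rag2-/- and -2.33 to -0.57 in Rag2+/-) and did not separate them.

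The question the comparison addresses is which genes accompany a high level of NK cytotoxic transcripts when T and B cells are missing. No gene passed the test at 4 against 4 tumors. Of 12838 genes tested with limma, 0 (0.0%) had a Benjamini-Hochberg adjusted p under 0.05, the smallest being 0.412. At an unadjusted p under 0.05 there were 426 genes (3.32%), 289 higher in high-score tumors (2.25%) and 137 lower (1.07%), and 292 (2.27%) and 146 (1.14%) had groups that did not overlap. A positive difference was found in 49.1% of the tested genes. The sections that follow therefore describe values, and a gene named as higher or lower did not pass this test unless that is said.

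The 10 higher genes with the lowest unadjusted p were, in that order, Phf11d, Ms4a4c, H2-Q6, Isg15, Bst2, Irf7, Phf11a, Nmi, Plac8 and Gzmb. Isg15 and Irf7 belong to the type I interferon list used below and Gzmb to the effector list, and the adjusted p of the 10 ran from 0.412 to 0.473. Isg15, a ubiquitin-like protein that is attached to other proteins after interferon, was 8.11, 8.06, 8.25 and 8.97 in S47, S41, S43 and S51 and 6.86, 6.77, 6.11 and 6.85 in S48, S50, S46 and S49. The high-score mean was 8.35 ± 0.42 and the low-score mean 6.65 ± 0.36 (SD, n = 4 each), a difference of 1.70 ± 0.28 (SE) or 3.24-fold. The groups were more than 1 log2 unit apart at their nearest tumors, and the middle tumors fell between or among the high ones at 7.19, 8.02 and 8.22. Irf7, the transcription factor that amplifies type I interferon production, was 8.05, 8.10, 8.08 and 8.59 against 6.61, 7.03, 6.53 and 7.16, a difference of 1.37 ± 0.22 (SE). Bst2, the membrane tether that holds back budding viruses, was 8.83, 8.84, 8.96 and 8.65 against 7.70, 7.90, 7.53 and 7.84, a difference of 1.08 ± 0.18 (SE). The spread within each group was 0.13 (high) and 0.17 (low) for Bst2, the tightest high-score group after Phf11d among the 10.

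Gzmb, a second granule protease that the score did not use, had the largest difference of the 10. It was 4.65, 4.97, 5.26 and 4.89 in the high-score tumors and 2.90, 2.01, 1.33 and 3.51 in the low-score tumors, a difference of 2.50 ± 0.44 (SE) or 5.68-fold. Since Gzma and Prf1 chose the tumors and are made by the same cells, Gzmb is not independent evidence. Plac8, a small cysteine-rich protein of leukocytes, was 8.14, 7.76, 8.02 and 9.07 against 5.99, 6.19, 6.33 and 6.96, a difference of 1.88 ± 0.33 (SE). Ms4a4c, of the membrane-spanning 4-domain family, was 6.84, 7.0, 6.49 and 7.58 against 5.08, 5.19, 5.24 and 5.70, a difference of 1.67 ± 0.26 (SE). Both were without overlap, and the middle tumors of Ms4a4c (6.16, 6.06 and 6.07) fell between the groups. Phf11d and Phf11a, neighbouring PHD finger genes, differed by 1.48 ± 0.20 and 1.68 ± 0.28 (SE). Phf11a lay between 2.05 and 2.17 in all 4 low-score tumors and between 3.34 and 4.55 in the high-score tumors. Nmi, a STAT-binding protein, differed by 1.39 ± 0.23 (SE). H2-Q6, a nonclassical MHC class I gene, was 6.42, 6.49, 6.13 and 6.61 against 4.44, 4.68, 5.36 and 5.14, a difference of 1.51 ± 0.24 (SE). The Phf11, H2-Q, Klra, Oas, Bcl2a1 and granzyme families hold close copies, so fragments may have been split among their members.

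**Figure D2:**
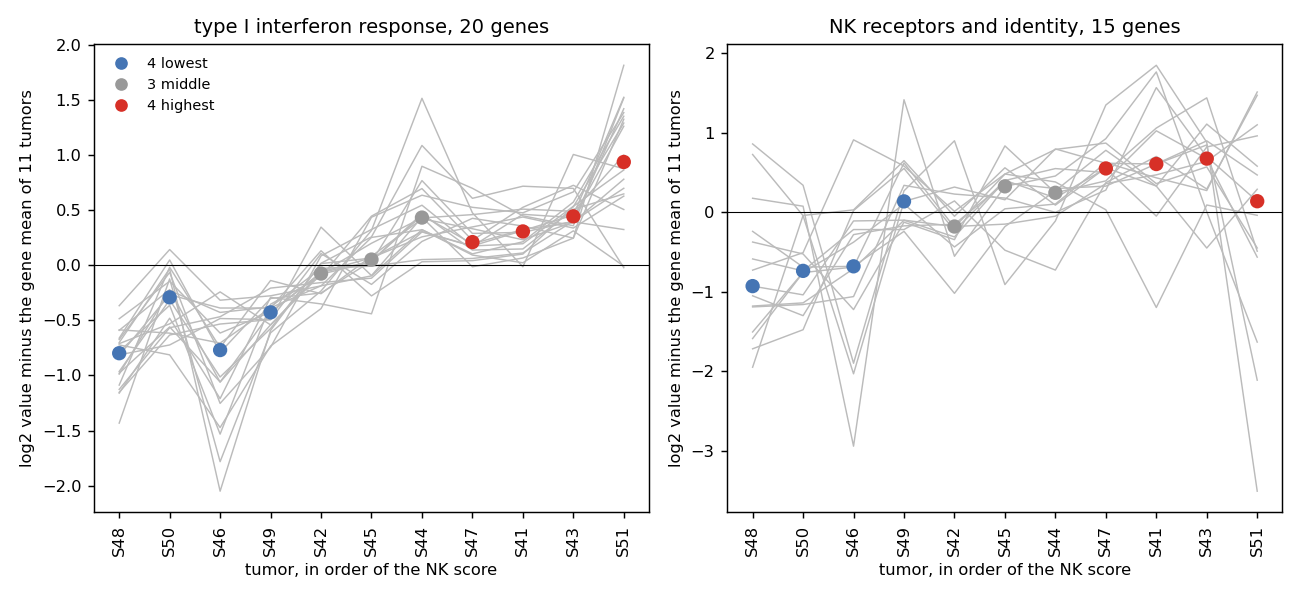
Log2 value of each gene minus its mean over the 11 Rag2-/- tumors, for 20 type I interferon response genes (left) and the 15 NK receptor and identity genes with a mean log2 value above 0 (right), with tumors in the order of the NK score. Grey lines are genes and coloured points are the median of the list in a tumor. The interferon list is below 0 in the 4 low-score tumors and above 0 in the 4 high-score tumors, while the NK list in S49 reaches the level of S51.

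Of these 10 genes, 3 hold in their promoter window the letters GAAA, any 2 bases and GAAA again (on the other strand TTTC, any 2 bases and TTTC), the core of the element that interferon-activated STAT2 and IRF9 bind. The windows of Isg15 (chr4:156200769-156201068, minus strand), Bst2 (chr8:71537423-71537722, minus strand) and Phf11a (chr14:59297473-59297772, minus strand) are printed because these are the named higher genes that hold the letters. Each runs 5′ to 3′ from 250 bases before to 50 bases after the start that RefSeq gives on GRCm38.p6, and capitals mark the matches.

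Isg15: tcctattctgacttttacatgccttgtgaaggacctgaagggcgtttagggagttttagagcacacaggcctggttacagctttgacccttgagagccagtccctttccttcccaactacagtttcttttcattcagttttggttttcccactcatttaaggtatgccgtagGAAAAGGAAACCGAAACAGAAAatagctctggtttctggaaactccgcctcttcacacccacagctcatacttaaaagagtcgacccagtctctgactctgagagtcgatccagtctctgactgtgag
Bst2: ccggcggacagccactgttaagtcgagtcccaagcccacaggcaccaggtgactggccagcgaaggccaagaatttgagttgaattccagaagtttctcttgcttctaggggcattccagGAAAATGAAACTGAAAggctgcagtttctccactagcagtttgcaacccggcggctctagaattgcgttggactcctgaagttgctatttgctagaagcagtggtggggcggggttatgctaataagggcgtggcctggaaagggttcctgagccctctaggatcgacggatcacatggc
Phf11a: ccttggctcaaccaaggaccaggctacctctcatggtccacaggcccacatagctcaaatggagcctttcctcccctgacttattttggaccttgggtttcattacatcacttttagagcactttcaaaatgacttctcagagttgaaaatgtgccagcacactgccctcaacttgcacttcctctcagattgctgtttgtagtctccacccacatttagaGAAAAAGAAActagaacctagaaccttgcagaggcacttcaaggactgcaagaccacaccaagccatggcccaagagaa

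Isg15 held 3 overlapping matches in a run of 22 bases, 78 to 57 bases before the start. Bst2 held 2 in a run of 16 bases, 130 to 115 before it, and Phf11a held 1, 29 to 20 before it. Across all RefSeq promoters the letters occurred in 1079 of 27025 genes (3.99%). They occurred in 7 of the 15 type I interferon genes that had a window (46.7%), namely Ifit1, Ifit3, Isg15, Oas1a, Oas3, Rsad2 and Stat2, in 8 of 11 interferon gamma genes (72.7%) and in 3 of 13 MHC class I genes (23.1%). Among NK receptor and identity genes they occurred in 2 of 25 (8.0%), and in 0 of the 8 genes with a window among the 10 lower genes named below. A match is a description of the letters, and binding was not measured.

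Of the gene lists examined, the type I interferon response had the largest share of members without overlap between the groups. All 20 members measured were higher in high-score tumors, with a median difference of 1.16, and 19 had groups that did not overlap. Over all 23868 genes above the floor in at least 1 of the tumors, the median difference was 0.00, 47.4% were positive and 352 (1.47%) were without overlap in that direction. The mean level of the list ran from 5.49 to 6.17 in the high-score tumors, 5.12 to 5.72 in the middle ones and 4.30 to 4.88 in the low-score tumors. The exception to the separation was Irf9, the DNA-binding subunit of the interferon-activated complex, which differed by 0.31 ± 0.18 (SE). Ifit3, an antiviral partner of Ifit1, was 7.36, 7.50, 7.64 and 8.71 against 6.22, 6.87, 6.17 and 6.61. Ifit1, which binds foreign capped RNA, was 6.05, 6.07, 6.41 and 6.74 against 5.20, 5.81, 4.62 and 5.13. Both were higher in every high-score tumor, with differences of 1.34 and 1.13. Mx2, a dynamin-like antiviral GTPase, differed by 1.58 ± 0.40 (SE).

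The list was also computed without the libraries that stood apart. Without S51 the median of the list was 0.94, without S41 1.23 and without both 0.93, with all 20 members positive each time and 19 without overlap after leaving out S51 or both (2.51% and 4.6% of all genes in those smaller groups). With S41, S46 and S51 taken out before the ranking, the median was 0.71, 20 of 20 were positive and 14 did not overlap (2.02% of all genes). Within the Xist-expressing tumors (3 high-score against S48 alone) the median difference was 1.22 and within the others (S51 alone against 3) 1.66, so each value rests on an arm of 1 tumor. Ranked by Ncr1 and Klrb1c alone, however, the median was 0.36, with 19 of 20 positive and 1 without overlap. Of all 23868 genes, 12744 were positive and 313 (1.31%) were without overlap in that ranking. That ranking put S51, the tumor highest in this list, among the low tumors. The same 4 high tumors against S42, S48, S49 and S50 gave the median of 0.71 above.

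**Figure D3:**
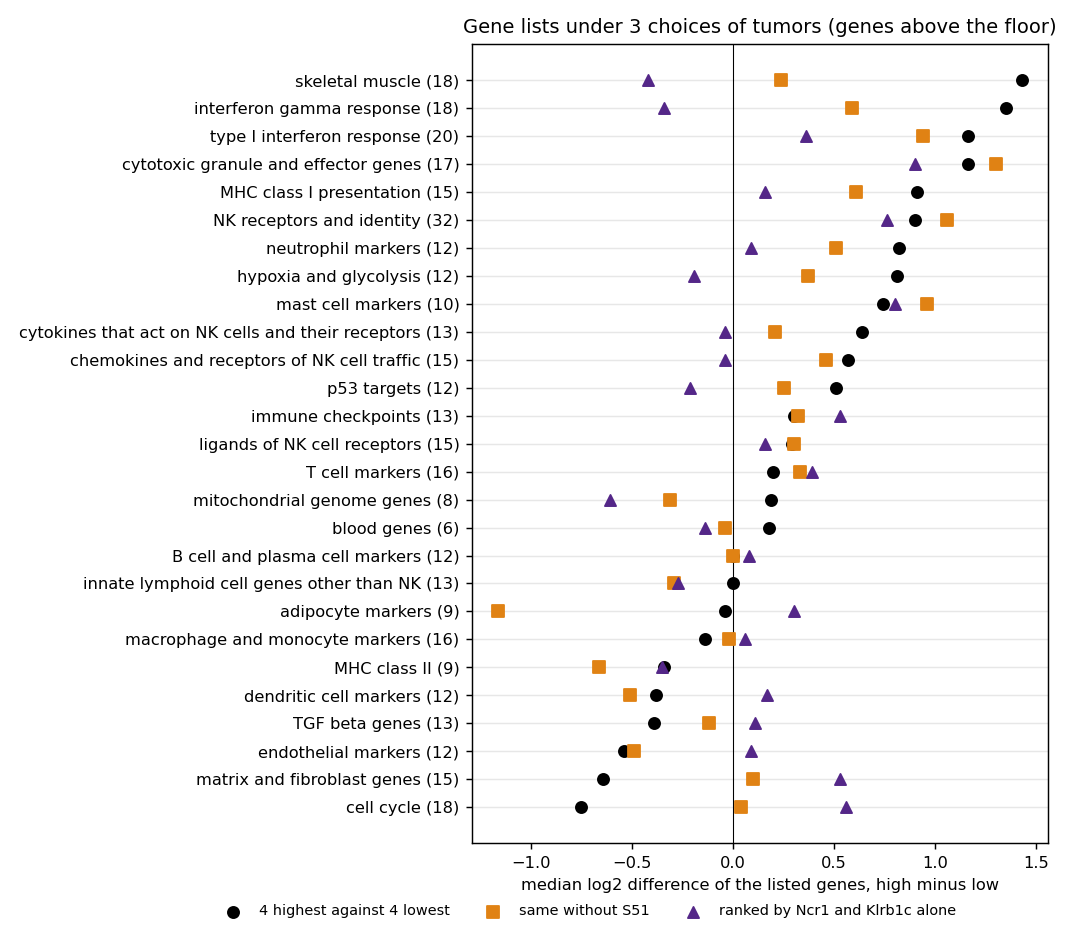
Median log2 difference, high minus low tumors, over the members of each gene list (number of genes in brackets), for the 4 highest against the 4 lowest tumors, for the same without S51 and for tumors ranked by Ncr1 and Klrb1c alone. The type I interferon list stays above 0 in all 3 (1.16, 0.94 and 0.36), while cell cycle and matrix lists move from below 0 to near 0 without S51.

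MHC class I genes, whose products display peptides and also engage inhibitory NK receptors, were higher in 15 of 15 members with a median of 0.91, and 6 did not overlap (1.47% of all genes). H2-Q7 was 7.09, 6.87, 6.72 and 7.44 against 5.15, 5.21, 6.05 and 6.16, and H2-Q4 was 7.47, 7.40, 7.51 and 7.76 against 5.90, 5.99, 6.65 and 6.65. Both are nonclassical Qa genes, and each of their high-score values lay above each low-score value. H2-K1, a classical class I heavy chain, was 10.01, 9.84, 9.87 and 10.45 against 8.55, 8.74, 9.98 and 9.24, where S46, high in adipocyte markers, reached into the high-score range. B2m, the shared light chain, was 11.19, 11.12, 11.24 and 11.29 against 10.19, 10.25, 11.11 and 10.69. Without S46 all 15 members were without overlap and the median was 1.15, where 3.53% of all genes were without overlap in that smaller comparison. Without S51 the median was 0.61, and ranked by Ncr1 and Klrb1c alone it was 0.16 with 10 of 15 positive.

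Fitted as a slope on the score over all 11 Rag2-/- tumors, which uses the middle tumors as well, 6 of 12838 genes (0.0467%) passed the limma test and all 6 rose, beside 812 genes (6.32%) at an unadjusted p under 0.05. They were H2-Q4 (0.91 log2 units per unit of score, adjusted p = 0.00537), H2-Q7 (1.03, adjusted p = 0.00776), Il2rb (0.98, adjusted p = 0.0101), H2-Q6 (1.08, adjusted p = 0.0112), Plac8 (1.31, adjusted p = 0.0365) and Bcl2a1a (1.22, adjusted p = 0.0365). Il2rb, the receptor chain through which NK cells sense IL-15, was 3.10, 3.38, 3.67 and 3.24 in the high-score tumors, 2.62, 3.14 and 3.07 in S42, S45 and S44, and 1.72, 1.47, 2.49 and 2.60 in the low-score tumors. Bcl2a1a, a survival protein of the BCL2 family, was 3.06, 3.19, 3.0 and 3.38, then 2.68, 2.41 and 1.98, then 0.75, 1.02, 1.60 and 2.54. In both genes S48 and S50 were the lowest of the 11. Il2rb belongs to the NK receptor and identity genes described next, so its rise with an NK score is not independent evidence. Leaving out S48 or S50 left 0 genes past the test. Leaving out any other tumor left H2-Q4, H2-Q6, H2-Q7 and Il2rb among 4 to 12 genes, with 4 without S41, 11 without S51 and 12 without S46.

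Other genes listed as NK genes can be made by the cells that the score was meant to find and are given as description. Of the 32 NK receptor and identity genes above the floor, 30 were higher in high-score tumors (median 0.90; 47.4% of all genes) and 7 did not overlap (1.47% of all genes), namely Klrk1, Klrc2, Klre1, Eomes, Il2rb, Nkg7 and Fcgr4. Klrk1, the activating receptor NKG2D, was 3.46, 3.27, 3.11 and 4.35 against 1.33, 2.08, 2.46 and 2.94. Nkg7, a granule membrane protein, was 3.03, 3.14, 3.31 and 3.77 against 1.74, 1.63, 2.56 and 2.57. Eomes, the transcription factor of conventional NK cells, had low values, at -0.51, 0.59, 0.66 and -0.15 against -1.38, -1.16, -0.64 and -0.59. These genes separated the groups by smaller steps than Gzmb did. Klrd1, the CD94 chain, overlapped, with S51 at 1.29 below S49 at 2.36. Klrg1, found on mature NK cells, differed by 1.44 ± 0.49 (SE), and its 3 lowest tumors were S48, S50 and S46. Without S51, 14 of the 32 were without overlap (2.51% of all genes) and the median was 1.06.

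Among 17 cytotoxic effector genes, 16 were higher in high-score tumors with a median of 1.16, and 2 did not overlap (1.47% of all genes). The granzymes did not move together. Gzmd was 3.39, 5.87, 4.09 and -3.32 in S47, S41, S43 and S51, and 1.01, -1.73, -3.32 and 3.14 in S48, S50, S46 and S49. Gzmg was 1.35, 4.56, 1.98 and -3.32 against -0.90, -3.32, -3.32 and 1.07. In S51 both were listed at the floor although Gzma was the highest of the 11 tumors there, and S41 had the highest value of both. The 2 genes overlapped between the groups for that reason. Without S51, 8 effector genes were without overlap, beside the same 2.51% of all genes. Without S46 there were 5 (3.53% of all genes). Ranked by Ncr1 and Klrb1c alone there were 6 (1.31% of all genes), with a median of 0.90 and 13 of 17 positive. Ifng, the cytokine of activated NK cells, was 2.43 in S51 and at most -0.50 in the other 10 tumors.

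Chemokines followed in part, with 11 of 15 higher, a median of 0.57 and 4 without overlap (47.4% and 1.47% of all genes). Ranked by Ncr1 and Klrb1c alone, the chemokine median was -0.04 with 7 of 15 positive and 0 without overlap, and Cxcl9 differed by -0.60. Cxcl10, which draws cells bearing CXCR3, was 7.0, 7.33, 7.84 and 9.0 against 6.87, 6.01, 4.14 and 6.24. Cxcl9, a second ligand of that receptor, was 4.89, 5.0, 4.77 and 8.72 against 3.07, 3.84, 3.58 and 3.81, and Cxcl11 was 0.28, 0.03, -0.09 and 3.34 against -2.04, -1.98, -2.81 and -2.34. In all 3 genes S51 was the highest tumor, and the other 3 high-score tumors still lay above every low-score tumor. Ccl2, which recruits monocytes, was 7.81, 7.71, 7.73 and 7.98 against 7.01, 6.78, 6.62 and 7.19, with S51 near the others. Ccl5, a chemokine made by NK and T cells, was 6.60, 7.64, 7.45 and 7.90 against 5.86, 4.97, 4.06 and 5.33, a difference of 2.34 ± 0.42 (SE). Il15, the NK survival cytokine, overlapped at 3.32, 2.17, 2.91 and 3.93 against 1.39, 2.14, 2.64 and 2.68. Ly6c2, a marker of inflammatory monocytes, was 7.77, 7.25, 6.96 and 8.84 against 5.79, 6.25, 5.52 and 6.41. It was the macrophage and monocyte gene without overlap in that direction, while Adgre1 (F4/80) differed by -0.15 and 6 of that list's 16 genes were higher (median -0.14), or 11 of 16 without S46 (median 0.30).

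The size of the interferon gamma response difference depended on S51. All 18 were higher in high-score tumors with a median of 1.35, and Gbp3, Igtp, Irgm1 and Iigp1 did not overlap (1.47% of all genes). Without S46, 11 of the 18 did not overlap (3.53% of all genes), without S41 9 (2.31%) and without S51 4 (2.51%). S51 had a mean of 7.54 over the list against 3.29 to 4.68 in the other 10 tumors. Igtp, an immunity-related GTPase, was 6.18, 5.14, 5.6 and 9.92 against 4.34, 4.94, 5.10 and 4.59. Iigp1, of the same family, was 6.53, 5.67, 5.74 and 9.34 against 4.51, 4.93, 5.57 and 4.93. Apart from S51, S47 stood clear of the low-score tumors in both genes, while S41 and S43 lay closer to the highest of them. Without S51 the list's median was 0.59 with 17 of 18 positive, and ranked by Ncr1 and Klrb1c alone it was -0.34 with 2 of 18 positive. Cd274, which encodes PD-L1, was 7.45 in S51 and 1.23 to 3.25 in the other 10 tumors.

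**Figure D4:**
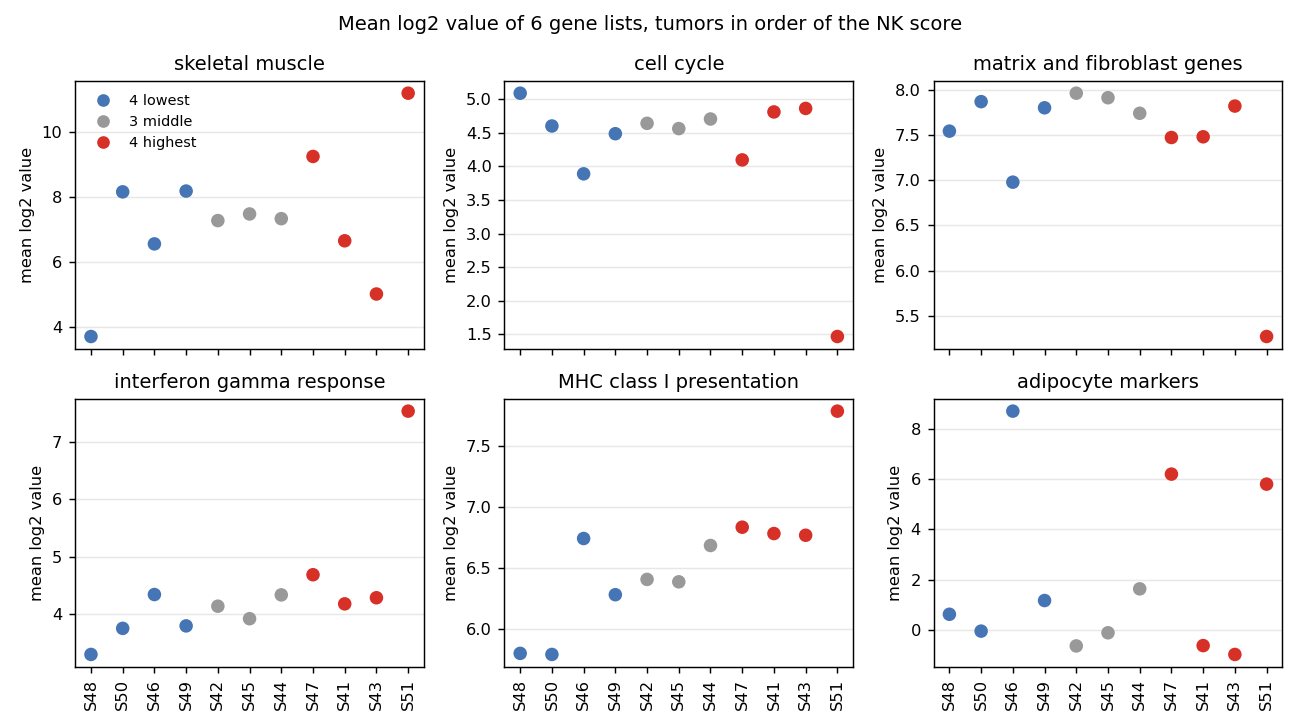
Mean log2 value (vertical axes) of 6 gene lists in each of the 11 Rag2-/- tumors, in the order of the NK score and coloured by group. S51 is far above the other tumors in the interferon gamma list (7.54) and far below them in the cell cycle list (1.47), and S46 is the highest in adipocyte markers (8.72).

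At an unadjusted p under 0.05, fewer genes were lower in high-score tumors (137) than higher (289). The 10 lower genes with the lowest unadjusted p were Creb3l1, Efna1, Sema6a, Rflnb, Efs, S1pr3, Kidins220, Inafm2, Ltbp3 and Cdon, with adjusted p from 0.852 to 0.942, and 9 of them, all but Cdon, were without overlap (1.14% of all tested genes), which follows in part from choosing them by p. Creb3l1, an endoplasmic reticulum transcription factor of collagen-producing cells, was 3.22, 3.19, 3.35 and 2.54 in the high-score tumors and 3.99, 4.01, 3.95 and 3.97 in the low-score tumors, a difference of -0.91 ± 0.21 (SE). The middle tumor S42 was the highest of all at 4.64, so the order did not follow the score there. Efna1, a ligand of Eph receptors, was 1.73, 0.84, 1.33 and 1.89 against 2.88, 2.75, 2.31 and 2.67, a difference of -1.20 ± 0.29 (SE). Rflnb, a filamin-binding protein, was 3.33, 2.77, 3.16 and 1.96 against 4.50, 4.41, 4.05 and 3.69. S1pr3, a receptor for sphingosine 1-phosphate, was 2.94, 2.40, 2.95 and 2.75 against 3.33, 3.50, 3.95 and 3.59. Neither gene owed its separation to a single tumor. Ltbp3, which stores latent TGF-beta in the matrix, differed by -0.73 ± 0.22 (SE), and Cdon, a Hedgehog co-receptor, by -1.64 ± 0.49 (SE).

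Stromal and proliferation genes were lower by their medians, which moved to near 0 without S51. Of 15 matrix and fibroblast genes 11 were lower, with a median of -0.64, and Col3a1, Col5a1, Col6a1 and Pdgfrb did not overlap, beside 206 of all genes (0.863%) in that direction. Without S51 the median of the list was 0.10, with 4 genes without overlap (1.42% of all genes). Pdgfrb, the receptor of fibroblasts and pericytes, was 3.94, 3.61, 4.24 and 1.98 against 4.61, 5.02, 4.36 and 4.77. Col5a1, a fibril-forming collagen, was 6.49, 6.48, 6.57 and 4.16 against 7.41, 7.29, 6.91 and 7.03. In these 2 genes the other high-score tumors were below the low-score tumors too. Cell cycle genes had a median of -0.75 with 17 of 18 negative and 0 without overlap, and 0.04 without S51. Mki67, a proliferation marker, was 3.22, 4.05, 4.46 and 0.66 against 4.65, 4.35, 3.72 and 4.03. Skeletal muscle genes had a median of 1.43, and 0.24 without S51. Ranked by Ncr1 and Klrb1c alone all 3 lists turned, with medians of 0.53 for matrix genes (15 of 15 positive), 0.56 for cell cycle genes (18 of 18 positive) and -0.42 for muscle genes (4 of 18 positive).

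Markers of other leukocytes separated the groups in few genes. T cell genes, which in Rag2-/- tumors can come from innate lymphocytes, had a median of 0.20 with 11 of 16 higher and 0 without overlap (0.41 without S46, 0.33 without S51). Trbc1, whose constant region NK cells can transcribe without rearrangement, differed by 2.83 ± 0.95 (SE) and overlapped between the groups. Trbc2, of the same list, went the other way at -0.89 ± 0.69 (SE) and overlapped too. MHC class II genes, which mark antigen-presenting cells, had a median of -0.34 with 9 of 9 lower and 0 without overlap. Without S46 their median was -0.04, without S41 -0.16 and without S51 -0.66. Among the tumors with Xist (3 against S48 alone) and those without it (S51 alone against 3), 8 of 9 were higher (medians 0.22 and 0.35), each from an arm of 1 tumor. Dendritic cell genes had a median of -0.38, neutrophil genes 0.82 and mast cell genes 0.74. The dendritic cell median was -0.12 without S46 and -0.13 without S41, and the neutrophil median 0.51 without S51 and 1.25 without S41. With the ranking by Ncr1 and Klrb1c alone they were 0.17 and 0.09. The mean neutrophil level was 3.95 in S47 and 2.55 in S51, but 1.13 in S41 and 0.43 in S43, against 0.66 to 1.53 in the low-score tumors. Endothelial genes were lower in 12 of 12 with a median of -0.54, and 1 did not overlap (0.863% of all genes). Without S46 the endothelial median was -0.25 with 9 of 12 lower, and with S41, S46 and S51 taken out before the ranking it was -0.02 with 6 of 12 lower. The endothelial median was 0.09 with 8 of 12 higher in the ranking by Ncr1 and Klrb1c alone. Ligands of NK receptors had a median of 0.29 with 12 of 15 higher, and of 0.15 without S41. Tnfrsf9, the 4-1BB receptor of activated lymphocytes, was 2.32, 3.40, 3.36 and 2.03 against 1.67, 0.65, 0.76 and 1.76, and was the checkpoint list's gene without overlap. With muscle genes adjusted for, the median of the tested neutrophil genes went from 0.71 to 0.13. That of MHC class II genes went from -0.32 to -0.69. With Xist adjusted for, these medians were 1.37 and 0.42 (7 of 7 positive). Ligands of NK receptors went from 0.33 to 0.34 with muscle and to 0.03 with Xist. Mast cell (0.52 and 1.44), dendritic cell (-0.63 and -0.21) and endothelial medians (-0.57 and -0.33) kept their sign. Beyond the values given, the part of sex, muscle, fat and depth in these differences was not tested.

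The 8 Rag2+/- tumors, which were not used to choose the groups, gave a check of the same relation by the slope on the same score. There 0 of 12820 genes (0.0%) passed the adjusted test and 1222 (9.53%) had an unadjusted p under 0.05, 891 of them positive (6.95%). That count depended on single tumors. It was 286 without S56, 650 without S55 and 1860 without S53, and 384 with a score of Ncr1 and Klrb1c alone. S56 had the lowest score, -1.26, and the next tumor, S53, had 0.04. In S56 Prf1 was at the floor, and its mean over skeletal muscle genes, 12.38, was the highest of all tumors. Whether the signs and counts of genes and lists given below hold without S56 was not tested. The 10 higher genes all had positive slopes, from 0.35 in Nmi to 1.28 in Gzmb, where 49.6% of all genes were positive. Isg15 had a slope of 0.59, Irf7 of 0.66, Bst2 of 0.46 and Plac8 of 0.79. Of the 10, 6 had an unadjusted p under 0.05. All 10 were positive too with a score of Ncr1 and Klrb1c alone, as were 49.4% of all genes. The 10 lower genes did not carry over, since 4 of 10 had a negative slope (Efna1 -0.44, Sema6a -0.26, Cdon -0.24 and Efs -0.16).

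All 20 type I interferon genes (median slope 0.60, 17 with an unadjusted p under 0.05), all 15 MHC class I genes (0.42) and all 10 NK genes tested (1.0) had positive slopes in the Rag2+/- tumors. T cell genes were positive in 16 of 16 (median 0.83), MHC class II in 7 of 7 (0.98) and macrophage genes in 16 of 16 (0.54). By the slope over the 11 Rag2-/- tumors the median was 0.42 over the 3 T cell genes tested, 0.07 over MHC class II genes (5 of 7 positive) and 0.07 over macrophage genes (12 of 16 positive). In the Rag2+/- tumors muscle genes were negative in 18 of 18 (-0.67) and hypoxia genes were positive in 3 of 12 (-0.46), while in Rag2-/- tumors 12 of 12 hypoxia genes were higher in high-score tumors (median 0.81) and 2 of them, Pgk1 and Ankrd37, did not overlap (1.47% of all genes), or 5 without S46 (3.53%). Without S51 that median was 0.37 with 11 of 12 positive, and ranked by Ncr1 and Klrb1c alone it was -0.19 with 2 of 12 positive. Over all 12475 genes measured in both, 33.8% had the same sign. The difference between the slopes was itself tested over the 19 tumors and 0 genes (0.0%) passed, with 1316 (10.5%) at an unadjusted p under 0.05, so no gene was shown to differ between the genotypes. T cells also make Gzma and Prf1, and Cd3e was above the floor in the Rag2+/- tumors, so the score need not count the same cells in both genotypes.

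**Figure D5:**
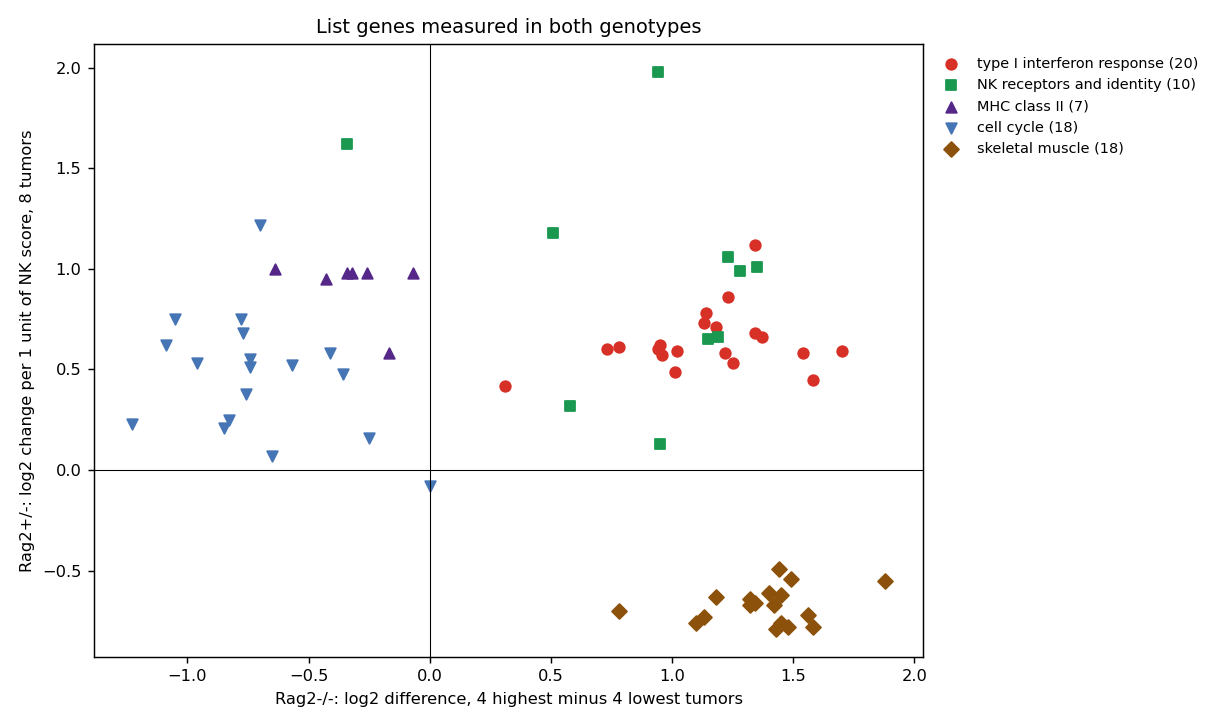
Log2 difference between the 4 high-score and 4 low-score Rag2-/- tumors (horizontal) against the log2 change per unit of NK score in the 8 Rag2+/- tumors (vertical), 1 point per gene of 5 lists. All 20 type I interferon genes lie above 0 on both axes, muscle genes lie above 0 in Rag2-/- and below 0 in Rag2+/- tumors, and the 7 MHC class II genes lie the opposite way.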

How the data were processed

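The authors deposited upper-quartile normalized log2 FPKM values. For neoantigen expression the study's methods describe alignment to mouse genome B38 with the Omicsoft aligner (Ensembl R86). For differential expression they describe Trimmomatic 0.36, STAR, HTSeq and mm10, which the submitters' processing notes also name. Which of these made the values is unresolved. Fold changes are 2 to the power of a log2 difference and understate low genes, because 0.1 had been added. No counts were used, so fragments were estimated from the smallest steps of low values, and depth is an estimate. All 19 value columns were used and 0 were left out.

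Tumors were ranked by the mean of Ncr1, Klrb1c, Gzma and Prf1, which were left out of all tests. The tumors, lists and named genes were chosen with earlier results of these data known. Genes with a mean log2 value above 0 over the 11 Rag2-/- tumors were tested with limma 3.58.1 (intensity trend, R 4.3.3), with Benjamini-Hochberg adjustment over all genes and a threshold of 0.05. Symbols of predicted genes were not named. The named genes were the 10 of the lowest p in each direction and, per list, those past the test or else the 2 with the largest difference. Genes named beyond that rule were chosen after their values were seen. List counts use members above the floor in at least 1 Rag2-/- tumor. Tested on simulated data for the 4 against 4 comparison of 12838 genes, of which 200 were changed, the test found 66% of the genes changed by 2 log2 units and 88% of those changed by 4, and 6.67% of its calls were false. Alternatives covered the pseudocount, the filter, scaling, covariates, other cuts of the ranking and leaving out tumors. Several were chosen after seeing the data: leaving out S41 with S51, the slope without each tumor or with Xist, and differences within each sex. Plots were drawn with matplotlib 3.10.9 and tables made with pandas 2.3.3 and numpy 2.4.6 under Python 3.11.15. Promoter windows came from RefSeq on GRCm38.p6.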

Additional observations from a re-analysis of the deposited data

Results flagged for a closer look

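Of 165 groups of 4 tumors examined, 21 (12.7%) held a tumor whose gap to the nearest of the others was too large a share of the group's range, where chance gives about 1 in 20 groups. S41, in the high-score group, had 5.23 M estimated fragments (27.1 to 29.7 M in the other 3).

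S51 was far from the other 3 high-score tumors in 11 values. It was the highest in the mean of MHC class I genes (7.78) and interferon gamma genes (7.54), in the interferon factor Irf7 (8.59), the guanylate-binding protein Gbp6 (8.81), the chemokines Cxcl9 (8.72) and Cxcl11 (3.34), the IL-12 receptor chain Il12rb1 (3.21) and the class II transactivator Ciita (3.01). It was the lowest in matrix genes (5.27), the mitotic kinase Plk1 (-1.22) and the fractalkine receptor Cx3cr1 (-2.45).

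S46 was far from the other 3 low-score tumors in adipocyte markers (8.72), Isg15 (6.11), Cx3cr1 (2.19) and the endothelial receptor Tie1 (4.51). S47 was the lowest high-score tumor in Prf1 (2.35) and the highest in Efs (1.37), and S41 was the highest in Phf11d (6.65). Among the low-score tumors, S50 was the lowest in Sema6a (1.59) and S49 was the highest in Klrg1 (0.99).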

How the results depend on the processing

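Against 0 genes past the adjusted test, 1 passed with no filter on low values (Gstt4), 1 with S41, S46 and S51 taken out before the ranking (Isg15, 1.23), 1 with Xist as a covariate (Lrrc17), 6 by the slope in 11 tumors and 20 by that slope with Xist. Leaving out 1 tumor gave 0 genes in the comparison of groups and 0 to 12 by the slope. At an unadjusted p under 0.05 the 426 genes became 852 with no filter, 672 without S46, 910 with the 3 tumors taken out, 699 with the middle tumors as a further group, 3211 with Xist, 245 with 3 against 3 tumors and 180 without S41 and S51. The difference in the share of genes above the floor, -0.649 percentage points, became 0.2 without S41. Of 1413 values of 55 named genes, 1387 kept their direction. Ranked by Ncr1 and Klrb1c alone, 15 genes reversed: Ltbp3 (0.05), Gbp6 (-0.24), Cxcl9 (-0.60), Il12rb1 (-0.59), Cx3cr1 (1.24), Cd209a (0.14), Ttn (-0.68), Tnnt3 (-0.38), Plk1 (1.32), Mki67 (0.34), Postn (0.46), Pdgfrb (0.21), Egln3 (-0.49), Tie1 (0.14) and Acta1 (-0.48). Leaving out 1 tumor, Cx3cr1 ran from -2.24 to 0.39 and Plk1 from -1.85 to 0.16, both highest without S51, and without S41 and S51 they were 0.39 and 0.11. With Xist, Ciita became 0.42 (slope 0.35) and Vwf 0.05 (slope 0.08). With the muscle list as a covariate, Tnnt3 became -0.01. With S41, S46 and S51 out, Egln3 became -0.13 and Tie1 0.03. The cause was not tested. No paired analysis was possible because the labels carry no replicate numbers. Depth limits S41 most, where low genes rest on few fragments.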
